A study of Mus musculus with 51 samples.

Results

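Hedgehog signals are received at the surface of a cell by a small set of proteins, and 5 of the 52636 genes in the count table encode them: Ptch1, Hhip, Cdon, Boc and Gas1. They were taken by gene name as the receptor and co-receptor genes of the pathway, and each name matched 1 gene. Hedgehog ligands such as Sonic hedgehog bind Patched1 (Ptch1), which in their absence holds the membrane protein Smoothened (Smo) inactive. Free Smoothened lets GLI transcription factors switch on target genes, and Ptch1, Hhip and Gli1 are textbook targets, so that the receptor and the decoy act as negative feedback. Hhip binds ligand without signalling, whereas Cdon, Boc and Gas1 bind ligand together with Patched1, help it to signal, and in several tissues are lowered by the signal.

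The study sorted mouse epithelial cells and sequenced total RNA in 51 libraries of 14 groups. SmoM2 is an activated form of Smoothened, and the labels place it under Krt5, a keratin of basal squamous cells; the sources used here do not say how the transgene was switched on or how old the adult mice were. WT (6 libraries, CD1 mice) held wild-type oesophageal cells with low EpCAM, an epithelial surface protein, whereas SmoM2 (6 libraries, Krt5-SmoM2, CD1) held oesophageal cells with high EpCAM. Sox9cKO (4 libraries, Krt5-SmoM2-Sox9fl/fl, EpCAM-high) carried SmoM2 together with a floxed Sox9 gene. K8YFP+ and K8YFP- (3 libraries each) were EpCAM-high oesophageal cells of Krt5-SmoM2-Krt8YFP mice of mixed background, with and without a YFP reporter named after Krt8, a keratin of simple epithelia. The time series (4 libraries per group) held Krt5-SmoM2 oesophagus at 3 and 7 weeks, sorted for high (3w EpHi, 7w EpHi) or low EpCAM (3w EpLo, 7w EpLo); the start of these weeks is not given. The other groups came from Krt8YFP mice without SmoM2: oesophagus at E13.5 (embryonic day; Embryo, 2 libraries, EpCAM and YFP), the columnar (JctColumnar, 4, high EpCAM and YFP) and squamous (JctSquamous, 3, high EpCAM without YFP) sides of a junction, stomach (Stomach, 2) and gut (Gut, 2), the last 2 tissues sorted on YFP. Strain is given as mixed for Embryo, JctColumnar, Stomach and Gut, and is not given for JctSquamous, the time series or Sox9cKO. Nothing says that libraries of a group came from separate animals, so p-values measure the spread between these samples.

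Libraries held 1.61 to 12.26 M counts (M, 1e6). The EpCAM gates could be read in the RNA: mean Epcam was 161 CPM (counts scaled to the same library total of 1e6) in WT, 193 in 3w EpLo and 132 in 7w EpLo, against 300.2 in SmoM2, 333 in 3w EpHi and 288 in 7w EpHi. WT and SmoM2 therefore differed in gate as well as genotype, whereas the EpCAM-low time-series groups and WT shared a gate. Krt5 averaged 259 CPM in Embryo and 21.95 or less in JctColumnar, Stomach and Gut, against 1223 or more in the other groups. Krt8 averaged 21.8 CPM in K8YFP+ and 1.40 in K8YFP-, against 276 or more in Embryo and the columnar tissues. Smo reads, in which transgene and endogenous gene cannot be told apart, averaged 75.0 CPM in WT, 76.1 in 3w EpLo, 96.1 in 7w EpLo, 161 in 3w EpHi, 208 in SmoM2 and 232 in 7w EpHi. WT libraries 3 and 5, and 4 and 6, differed from each other far less than the other 13 WT pairs (chi-square per degree of freedom 1.92 and 2.47, against 11.0 to 35.6) and may be repeats; summing each pair left every call on a member unchanged. In sorted bulk samples, fewer cells of a type and less RNA per cell cannot be told apart.

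The stretches around the start sites of the 2 feedback genes, Ptch1 and Hhip, and of Gas1, the co-receptor that moved in most comparisons, are shown because GLI factors read short motifs in DNA. RefSeq (GRCm38.p6) gave windows of 250 bases before to 50 after the start site for 4 of the 5 members, Cdon included, and each is printed on the gene's own strand, which is the minus strand in all 3. Capitals mark the core CCACC, or its reverse complement GGTGG, of the GLI consensus GACCACCCA. The Ptch1 window lies at chr13:63565686-63565985, inside the gene model, the Hhip window at chr8:80057959-80058258 and the Gas1 window at chr13:60177486-60177785.
Ptch1: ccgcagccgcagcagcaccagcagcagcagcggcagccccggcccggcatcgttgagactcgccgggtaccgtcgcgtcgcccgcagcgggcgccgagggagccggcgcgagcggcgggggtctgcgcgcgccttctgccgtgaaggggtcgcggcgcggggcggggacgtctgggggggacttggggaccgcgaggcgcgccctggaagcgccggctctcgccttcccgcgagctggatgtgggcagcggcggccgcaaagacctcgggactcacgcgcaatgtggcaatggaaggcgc
Hhip: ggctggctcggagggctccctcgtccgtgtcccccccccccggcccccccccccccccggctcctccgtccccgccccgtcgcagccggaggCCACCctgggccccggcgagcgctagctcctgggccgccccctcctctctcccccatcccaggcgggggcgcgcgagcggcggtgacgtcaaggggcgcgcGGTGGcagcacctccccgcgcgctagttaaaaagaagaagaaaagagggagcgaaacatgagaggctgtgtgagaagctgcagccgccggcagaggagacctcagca
Gas1: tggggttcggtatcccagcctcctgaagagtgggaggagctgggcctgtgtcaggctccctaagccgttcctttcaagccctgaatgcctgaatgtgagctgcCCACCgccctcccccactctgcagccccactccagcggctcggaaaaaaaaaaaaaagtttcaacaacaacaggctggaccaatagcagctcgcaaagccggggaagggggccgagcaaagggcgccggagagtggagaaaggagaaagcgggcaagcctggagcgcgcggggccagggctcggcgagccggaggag
Hhip holds the core at bases 93 (as CCACC) and 194 (as GGTGG), and Gas1 holds it at base 104. The Ptch1 and Cdon windows hold no core, and the full consensus, searched on both strands, is in none of the 4. The start site of the Cdon window lies 30948 bases inside its gene model, so that window is away from the start of the model. These letters are common or rare by themselves: of 32851 mouse windows of this length 60.4% hold the core and 0.253% the full consensus.

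Ptch1 (ENSMUSG00000021466, GRCm38 chromosome 13, 63508328 to 63573598, minus strand) ranged from 7.49 CPM in a Gut library to 2324 in a Sox9cKO library, lowest on average in Gut, WT, Stomach and the junction and highest in the EpCAM-high SmoM2 groups. In order of mean CPM the levels were 1773 in 7w EpHi, 1710 in Sox9cKO, 1390 in SmoM2, 1303 in K8YFP-, 843 in 3w EpHi, 509 in K8YFP+, 252 in Embryo, 112 in 3w EpLo, 89.4 in 7w EpLo, 31.5 in JctColumnar, 30.0 in JctSquamous, 26.6 in Stomach, 19.0 in WT and 15.3 in Gut. Between neighbours in that order the ranges did not overlap at 5 steps: K8YFP- over 3w EpHi, Embryo over 3w EpLo, 7w EpLo over JctColumnar, JctSquamous over Stomach and Stomach over WT. Neighbours among the first 4 groups of the order overlapped.

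**Figure D1:**
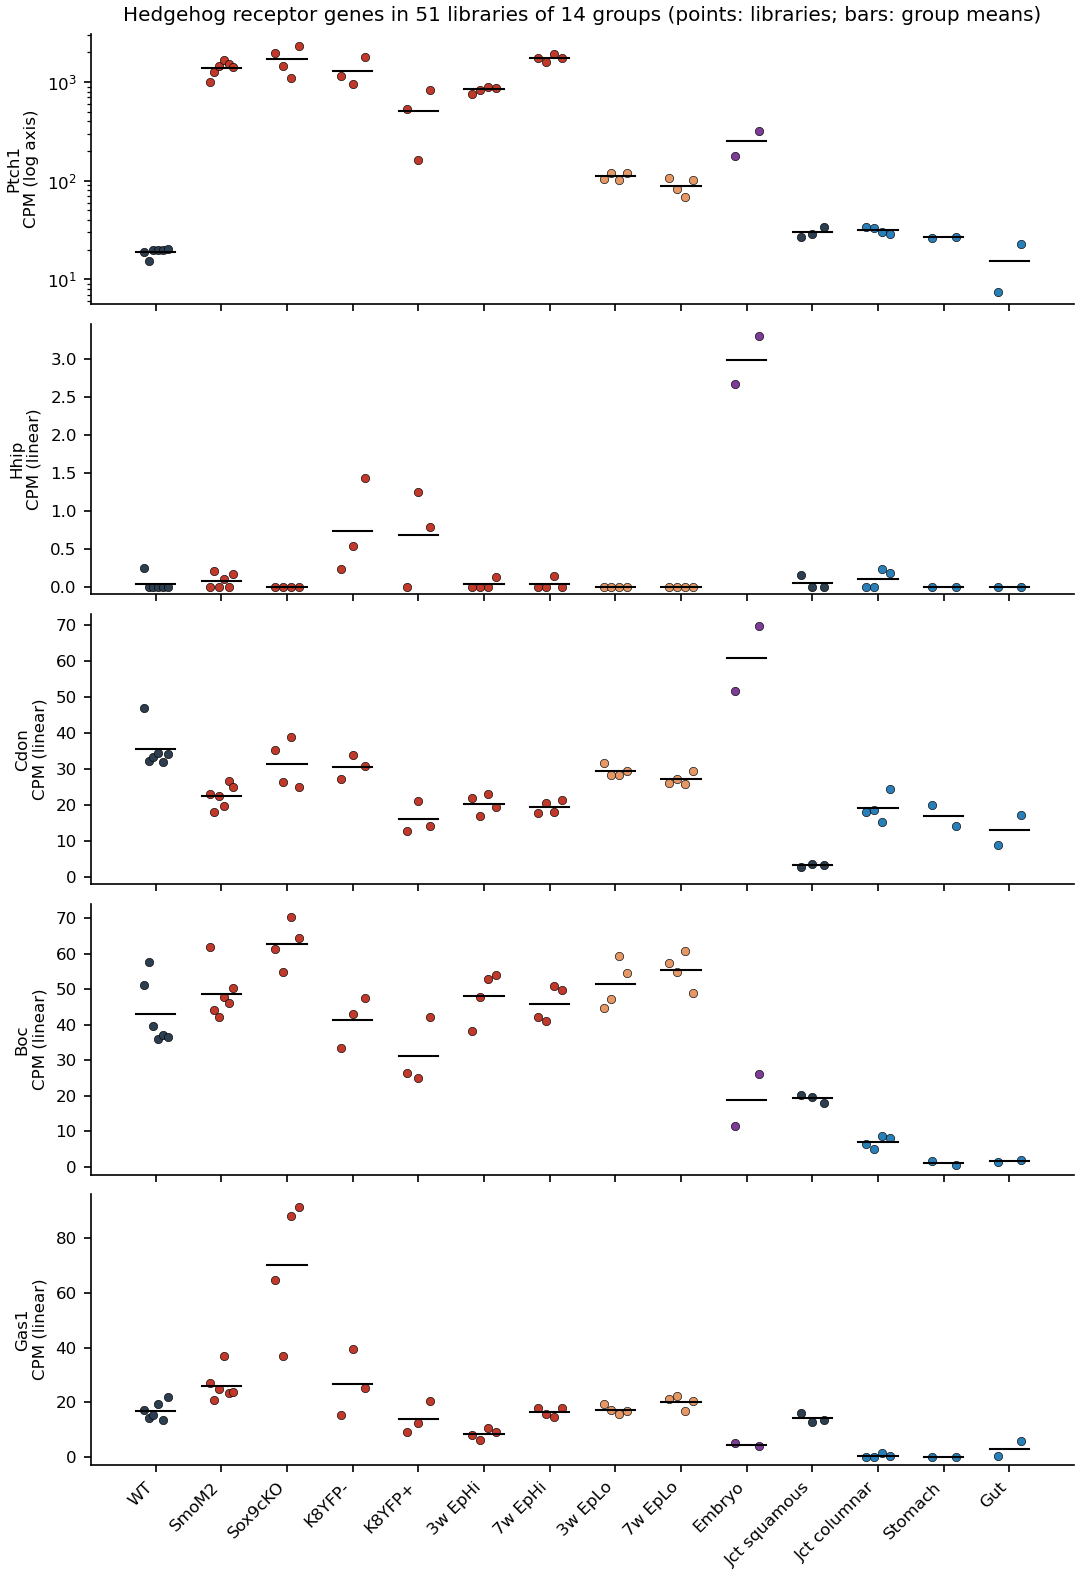
CPM of the 5 genes in each of 51 libraries (points) with group means (bars), on a log axis for Ptch1 and linear axes for the others. Red marks EpCAM-high groups with SmoM2, orange EpCAM-low groups with SmoM2, purple the embryo, blue the columnar tissues and dark points WT and JctSquamous. Ptch1 is at 68 CPM or more in every library with SmoM2 and between 15.3 and 20.4 in WT, whereas Hhip exceeds 2 CPM in the embryo alone.

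Adult oesophageal cells with SmoM2 carried far more Ptch1 RNA than wild-type cells. The 6 WT libraries held 15.3 to 20.4 CPM (median 19.7) and the 6 SmoM2 libraries 1001 to 1665 (median 1454), without overlap. The fitted difference was 6.06 ± 0.13 on the log2 scale (SE; edgeR quasi-likelihood test, Benjamini-Hochberg adjusted p = 1.22e-13), a 66.9-fold increase. Of the 4 members tested in SmoM2 against WT, 3 passed an adjusted p of 0.05, Ptch1 and Gas1 higher and Cdon lower, where 49.5% of all tested genes passed. Hhip was below the filter on low counts.

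The gates separated the library ranges of Ptch1 at both weeks, and the weeks separated these ranges at high EpCAM alone. The 4 libraries of 3w EpLo held 105, 121, 102 and 120 CPM and those of 7w EpLo 107, 81.8, 68 and 101, overlapping ranges that both lay above every WT library. At high EpCAM the values were 766, 836, 902 and 868 CPM at 3 weeks and 1757, 1614, 1948 and 1771 at 7 weeks. These ranges were apart from each other and from the EpCAM-low cells of either week.

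Against WT, which all these comparisons share, Ptch1 was 2.5 ± 0.11 log2 higher in 3w EpLo (adjusted p = 1.89e-14) and 2.12 ± 0.11 in 7w EpLo (8.29e-13), cells sorted in the same gate as WT. In 3w EpHi it was 5.36 ± 0.12 higher (3.63e-21) and in 7w EpHi 6.38 ± 0.12 (2.06e-22). Among the 4 members tested, 2 passed in each of 3w EpLo, 7w EpLo and 7w EpHi against WT and 3 in 3w EpHi, where 47.4%, 40.4%, 57.6% and 58.9% of tested genes passed, respectively. Epithelial markers moved as well. In these 4 groups, in that order, squamous differentiation markers were lower for 8, 4, 6 and 8 of 8 and higher for 0. Simple epithelial markers were lower for 5, 3, 3 and 5 of 6, each time with 1 higher. Squamous basal markers were lower for 1, 3, 6 and 3 of 8 and higher for 1, 2, 1 and 0. The part of these markers in the member differences from WT was not tested.

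Within the SmoM2 oesophagus, Ptch1 was higher at high EpCAM. The difference between EpHi and EpLo cells was 2.86 ± 0.12 log2 at 3 weeks (adjusted p = 6.25e-14) and 4.27 ± 0.13 at 7 weeks (2.54e-17), and 3 and 2 members passed where 15.2% and 32.3% of tested genes did. From 3 to 7 weeks it rose in EpHi cells by 1.02 ± 0.11 (2.61e-07), 1 of 2 members that passed beside 41.4% of tested genes. In EpLo cells it fell by 0.39 ± 0.12 (0.0105), the only member to pass where 38% of tested genes did. That fall rested on 1 library: without 7w EpLo library 3 it was -0.28 ± 0.11 (0.057), and in the fit of all 14 groups its adjusted p was 0.316. The widening of the gap between gates, tested as an interaction, was 1.41 ± 0.16 log2 (3.48e-05), and Ptch1 was the only member to pass it, as 2.31% of tested genes did. In the fit of all 14 groups the interaction had the same size, 1.41 ± 0.34, at an adjusted p of 0.0679.

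**Figure D2:**
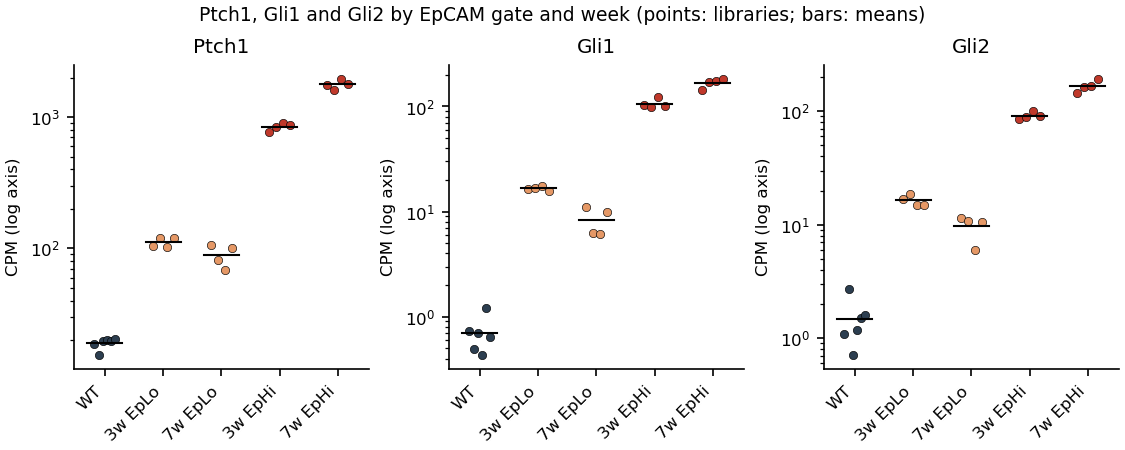
CPM on log axes of Ptch1, Gli1 and Gli2 in WT and the 4 time-series groups (points are libraries, bars are means). Ptch1 steps up from WT (mean 19.0) through the EpCAM-low groups (112 and 89.4) to EpCAM-high cells at 3 (843) and 7 weeks (1773), and all 3 genes are higher in EpHi than in EpLo cells at both times.

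YFP-positive cells of SmoM2 oesophagus had less Ptch1 than YFP-negative cells in each numbered pair, but the size varied. K8YFP+ libraries held 532, 162 and 833 CPM and K8YFP- libraries 1146, 952 and 1813, without overlap. The unpaired difference, -1.001 ± 0.48 log2, did not pass in edgeR (adjusted p = 0.174), and 0 of the 4 members tested did, where 19.9% of tested genes passed. The count was also 0 at an unadjusted p under 0.05 and by DESeq2. With the replicate number as a block (same-numbered libraries deviated together), the Ptch1 difference was -1.18 ± 0.24 (0.00944), and Ptch1 was then the only member among 30.7% of genes that passed. Fibroblast markers moved with this comparison: 8 of 12 were higher in K8YFP+, their summed level was 76.5, 668 and 345 CPM against 18.6, 86.5 and 78.8 in K8YFP-, and each of the 12 had counts in both groups. The library with the lowest Ptch1, K8YFP+ 2, was the one with 668 CPM. Epithelial markers moved too: 7 of 8 squamous basal markers were lower in K8YFP+ (sums of 2681 to 4498 CPM against 9967 to 12786), and all 8 squamous differentiation markers (26216 to 35126 against 6648 to 9538) and all 8 simple epithelial markers (997 to 1326 against 222 to 528) were higher. Muscle markers summed to 8.91 to 238 CPM in K8YFP+ and 4.92 to 16.7 in K8YFP-, with 0 of 3 called, and endothelial markers to 23.0 to 111 and 10.7 to 16.8, with 1 of 1 higher. Each basal, differentiation and simple epithelial marker had counts in both groups, and 1 of 8 muscle markers had none in either. The part of these markers in the Ptch1, Cdon, Boc and Gas1 values of this pair was not tested.

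Ptch1 in the libraries labelled Sox9cKO did not differ detectably from SmoM2. Sox9 itself read 51.7, 45.7, 127 and 45.8 CPM in the libraries labelled Sox9cKO and 72.7 to 194 (median 90.0) in SmoM2, so that 3 of 4 lay below every SmoM2 library and library 3 lay among them (difference -0.73 in log2(CPM + 1), exact two-sided permutation p = 0.0857). Ptch1 was at 1967, 1451, 1099 and 2324 CPM, a difference of 0.33 ± 0.18 log2 from SmoM2 (95% interval -0.05 to 0.71, adjusted p = 0.314). Gas1 alone among the 4 members tested passed in this comparison, in which 2.66% of tested genes did.

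Embryonic oesophageal cells held Ptch1 at 180 and 323 CPM, above every adult library without SmoM2. The difference from WT was 3.20 ± 0.26 log2 (adjusted p = 2.06e-14). All 5 members were tested here and 4 passed, Ptch1 and Hhip higher and Boc and Gas1 lower, where 64% of tested genes passed. Fibroblast markers summed to 249 and 440 CPM in Embryo against 21.3 to 121 in WT, each of the 12 with counts in both groups. Of these 12, 6 were higher and 1 lower. Muscle markers were higher for 5 of 6 and lower for 0 (65.2 and 70.0 CPM against 5.60 to 13.8). Squamous basal markers were lower for 7 of 8 and higher for 0, and differentiation markers lower for all 8. Simple epithelial markers were higher for 5 of 8 and lower for 2. The part of these markers in the member differences was not tested.

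Columnar and squamous cells of the adult junction did not differ detectably in Ptch1 although many other genes of the pathway did. JctColumnar held 34.0, 33.2, 30.1 and 28.9 CPM and JctSquamous 27.1, 29.2 and 33.8, overlapping ranges (-0.24 ± 0.12 log2, 95% interval -0.50 to 0.02, adjusted p = 0.0879). The 3 co-receptors all passed there, with 74.4% of tested genes. All 8 squamous basal and all 8 differentiation markers were lower and all 6 gastric markers higher in JctColumnar. Immune markers summed to 187 to 422 CPM in JctColumnar against 16.8 to 24.7 in JctSquamous (2 of 5 higher, 2 lower, 1 without counts in JctSquamous), and enteroendocrine markers to 2137 to 4581 against 5.53 to 8.12 (5 of 6 higher, 1 lower, all with counts in both). Their part in the member differences was not tested. Stomach held 26.4 and 26.9 CPM and Gut 7.49 and 23.1. K8YFP+ cells were 4.41 ± 0.29 log2 above JctColumnar (1.75e-17), 4.45 ± 0.39 above Stomach (3.59e-13) and 5.01 ± 0.41 above Gut (5.4e-14), in a fit of all groups that shares the K8YFP+ libraries among the 3 contrasts. In each, 3 of 5 members passed (Ptch1, Boc and Gas1, all higher), where 60.8%, 50.4% and 49.3% of tested genes passed, and without Gut library 2 the Ptch1 difference from Gut was 5.92. Fibroblast markers were higher in K8YFP+ in these contrasts, 12, 12 and 6 of 12, at sums of 76.5 to 668 CPM against 16.6 to 45.6 in JctColumnar, 10.7 to 11.9 in Stomach, and 6.06 and 154 in Gut, where 1, 1 and 2 of the 12 had no count. Muscle markers were higher for 5, 5 and 4 of 6 (8.91 to 238 CPM against 10.3 to 19.4, 13.4 to 16.6, and 8.91 and 22.9; 1 of 8 without counts in K8YFP+, 0 in JctColumnar, 2 in Stomach and 2 in Gut). Immune markers were lower for 3, 1 and 4 of 6 and higher for 1, 2 and 1. Squamous differentiation markers were higher for all 8 in each contrast, at medians of 11, 11.1 and 10.1 log2. Squamous basal markers were higher for 6, 6 and 5 of 8 and lower for 0, 0 and 2. Gastric markers were lower for all 6 in each contrast. Simple epithelial markers were lower for 5, 5 and 7 of 8 and higher for 1, 1 and 0. The part of these markers in the Ptch1, Boc and Gas1 differences was not tested.

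Hhip (ENSMUSG00000064325, chromosome 8, 79965851 to 80058006, minus strand), the decoy, was close to undetected outside the embryo, although its feedback partner Ptch1 was abundant. It had 102 counts in all, in 16 of 51 libraries, and passed the filter on low counts in 4 of 17 comparisons. Embryo held 29 and 36 of these counts, 2.68 and 3.30 CPM. WT held 2 counts in 53.33 M, both in library 1, so that the pooled level was 79.7 times higher in Embryo (95% interval 21.2 to 672, exact, counting error only). The edgeR test passed at an adjusted p of 8.25e-07.

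In SmoM2, the time series and Sox9cKO, no library held more than 2 counts of Hhip. SmoM2 held 5 counts (0, 2, 0, 1, 0 and 2) in 62.02 M, a ratio to WT of 2.15 (0.352 to 22.6). The 26 libraries of SmoM2, the time series and Sox9cKO held 7 counts in 209.19 M, and 3w EpLo, 7w EpLo and Sox9cKO held none, which allows up to 0.108, 0.121 and 0.0823 CPM. K8YFP- and K8YFP+ held more, 2, 5 and 13 counts and 0, 2 and 3 counts, a pooled 9.19 (3.35 to 31.4) and 5.11 (1.18 to 22.2) times the level of SmoM2. These intervals take no account of the spread between libraries, and strain and sort also differed. Stomach and Gut held no count (up to 0.277 and 0.466 CPM), JctColumnar 2 and JctSquamous 1.

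Cdon (ENSMUSG00000038119, chromosome 9, 35421128 to 35507652, plus strand), an immunoglobulin-family co-receptor, was lower in SmoM2 and in every time-series group than in WT. WT libraries held 31.9 to 46.9 CPM (median 33.7) and SmoM2 libraries 17.9 to 26.6 (median 22.8), without overlap, a difference of -0.78 ± 0.13 log2 (adjusted p = 0.000146). The EpHi cells held 21.9, 16.9, 22.9 and 19.3 CPM at 3 weeks and 17.7, 20.5, 17.9 and 21.5 at 7 weeks, and the EpLo cells 31.7, 28.4, 28.3 and 29.5, then 26.1, 27.3, 25.9 and 29.4. Every time-series library lay below the lowest WT library. Fibroblast markers summed to 21.3 to 121 CPM in WT and 22.7 to 38.4 in SmoM2, and WT library 1, the highest of them, was also the highest in Cdon; without it the difference was -0.68 log2 (adjusted p = 0.000135).

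Against WT the log2 differences of Cdon were -0.92 ± 0.12 in 3w EpHi (adjusted p = 4.33e-07), -1.03 ± 0.12 in 7w EpHi (7.07e-08), -0.33 ± 0.11 in 3w EpLo (0.0197) and -0.51 ± 0.11 in 7w EpLo (0.00117). Without WT library 1 the 3w EpLo difference was -0.21 (0.0437). The 3w EpLo call was lost without that group's library 3 (0.0612) and in the fit of all 14 groups (0.0653). EpHi cells were lower than EpLo cells, at -0.59 ± 0.13 log2 at 3 weeks (0.00182) and -0.53 ± 0.13 at 7 weeks (0.00266), and the interaction of gate and week was 0.06 (95% interval -0.31 to 0.44). The order of the gates was thus the reverse of that of Ptch1.

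The junction held the lowest and, within it, the most unequal Cdon levels. JctSquamous had 2.82, 3.69 and 3.42 CPM, the lowest of the 14 groups and apart from all others, and JctColumnar 17.99, 18.7, 15.2 and 24.4, which was 2.21 ± 0.21 log2 higher (adjusted p = 2.18e-06). WT, also a squamous epithelium, averaged 35.5 ± 5.68 CPM (SD, n = 6), 10.7 times the mean of JctSquamous. That contrast crosses gate and site and was not tested, and the strain of JctSquamous is not given. Embryo held 51.8 and 69.7 CPM, above every other library, but after TMM scaling the difference from WT was 0.25 ± 0.18 log2 (-0.11 to 0.61, 0.216). K8YFP+ libraries held 12.8, 21.2 and 14.2 CPM and K8YFP- libraries 27.2, 33.9 and 30.8, a difference of -0.58 ± 0.26 log2 (0.149). That difference passed without K8YFP+ library 2 (-0.89 ± 0.19, 0.0292) and in the fit of all 14 groups (-0.72 ± 0.21, 0.00617). Against JctColumnar, Stomach and Gut the K8YFP+ cells differed in Cdon by 0.10, 0.02 and 0.20 log2, none passing, and in Sox9cKO it was 0.53 ± 0.17 above SmoM2 (0.1125). The Sox9cKO difference passed in the fit of all 14 groups (0.55, 0.0154) and without Sox9cKO library 2 (0.59, 0.0493).

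Boc (ENSMUSG00000022687, chromosome 16, 44485049 to 44558897, minus strand), the paralogue of Cdon, passed in none of the contrasts among the adult oesophageal groups. WT held 35.9 to 57.6 CPM (median 38.4), SmoM2 42.1 to 61.8 (median 47.0), and the time-series means were 48.2 and 45.9 at high and 51.4 and 55.5 at low EpCAM. SmoM2 differed from WT by 0.05 ± 0.15 log2 (95% interval -0.26 to 0.37, adjusted p = 0.793), and the intervals of 3w EpHi (-0.24 to 0.34) and 7w EpHi (-0.36 to 0.22) against WT also spanned 0. Leaving out WT library 2 brought the EpLo differences from WT past the threshold, at 0.31 (0.0469) at 3 weeks and 0.35 (0.0294) at 7 weeks. Between gates at 7 weeks, EpHi cells were at -0.32 ± 0.15 log2 from EpLo cells, which did not pass (0.121). With the replicate number as a block that difference passed (-0.32 ± 0.075, 0.000881).

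Boc was lower in columnar than in squamous cells of the junction, and lower in Embryo than in WT. JctColumnar held 6.61, 5.10, 8.63 and 8.13 CPM against 20.2, 19.7 and 17.96 in JctSquamous, a difference of -1.76 ± 0.18 log2 (adjusted p = 4.43e-06). Embryo held 11.5 and 26.1 CPM, below WT at -1.72 ± 0.23 log2 (2.06e-08), or -2.47 without library 2. Stomach held 1.57 and 0.626 CPM and Gut 1.43 and 1.93, the lowest levels. K8YFP+ cells (26.4, 24.9 and 42.2 CPM) did not differ detectably in Boc from K8YFP- cells (33.5, 43.0 and 47.4) within a wide interval (-0.01 log2, -0.53 to 0.51), and exceeded JctColumnar by 2.57 ± 0.23 (4.78e-13), Stomach by 4.83 ± 0.39 (1.88e-14) and Gut by 4.17 ± 0.40 (5.22e-12). Without Stomach library 1 the difference from Stomach was 5.78. Sox9cKO held 61.3, 54.8, 70.4 and 64.4 CPM, 0.41 ± 0.14 log2 above SmoM2, which did not pass (0.125) but did without SmoM2 library 1 (0.51, 0.0262).

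Gas1 (ENSMUSG00000052957, chromosome 13, 60174405 to 60177365, minus strand, 1 exon) encodes a co-receptor anchored to the membrane by a lipid. It passed in 10 of 17 comparisons, 6 higher and 4 lower, and it lay on either side of WT in SmoM2 groups. It shares 589 exon bases with Gm48488, a non-coding RNA on the opposite strand, and the strand setting of the counting is not given, so reads of the pair cannot be told apart. Gm48488 had 1737 counts and moved beside Gas1, with means of 2.76 CPM in WT, 6.13 in SmoM2 and 17.4 in Sox9cKO.

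WT held 13.8 to 21.9 CPM of Gas1 (median 16.3) and SmoM2 20.8 to 37.1 (median 24.4), ranges that overlapped slightly. The rise of 0.50 ± 0.15 log2 passed (adjusted p = 0.0104) but not in the fit of all 14 groups (0.47, 0.0717). In 3w EpHi, by contrast, the libraries held 8.09, 6.32, 10.8 and 9.33 CPM, below every WT library, a difference of -1.09 ± 0.14 log2 (6.15e-07). At 7 weeks the EpHi libraries were back in the WT range at 17.9, 15.8, 14.7 and 17.9 CPM (-0.20 ± 0.13, 0.199), 0.89 ± 0.15 above 3w EpHi (7.69e-05). From 3 to 7 weeks 3 of 10 fibroblast markers rose in EpHi cells and 0 fell, where 41.4% of all tested genes passed. Their median was 1.27 log2, against 0.015 over all tested genes, and the list summed to 38.2 to 56.1 and 42.6 to 58.3 CPM. Dcn, the most abundant of them, was at -0.64 ± 0.37 log2 and did not pass. Of 8 squamous differentiation markers, 6 rose and 0 fell (3573 to 4183 and 5662 to 7696 CPM). All of these markers had counts in both groups, and their part in the result was not tested. EpLo cells held 19.4, 17.4, 15.7 and 16.8 CPM at 3 weeks and 21.4, 22.3, 16.8 and 20.5 at 7 weeks, and neither week passed against WT. EpHi cells were lower than EpLo cells at 3 weeks (-1.05 ± 0.15, 2.28e-05), and the difference of -0.33 ± 0.14 at 7 weeks did not pass (0.0826). The interaction of gate and week, 0.72 ± 0.21, missed the threshold (0.0734) and passed by DESeq2 (0.0306), without 3w EpHi library 3 (0.0339) and with the replicate block (0.72 ± 0.18, 0.00682). With that block the 7-week difference between gates also passed (-0.33 ± 0.12, 0.0254). Same-numbered 7-week libraries correlated at r of 0.198, 0.166, 0.175 and 0.0717, each above the highest r with another number.

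Gas1 had its highest mean of the 14 groups in the cells labelled Sox9cKO. Sox9cKO libraries held 64.6, 37.1, 88.2 and 91.5 CPM against 20.8 to 37.1 (median 24.4) in SmoM2, the lowest of the former level with the highest of the latter. The rise was 1.46 ± 0.22 log2 (adjusted p = 0.00571), with adjusted p from 2.34e-07 to 0.03 over 15 alternatives. Library 3, whose Sox9 was at the SmoM2 level, did not carry the call: without it the rise was 1.31 (0.0205). Fibroblast markers summed to 61.1, 35.4, 200.4 and 53.4 CPM in Sox9cKO and 22.7 to 38.4 in SmoM2, each with counts in both groups. Of the 8 tested, 1 was called higher, Lum, and 0 lower, where 2.66% of all tested genes passed. Their median was 1.54 log2 against 0.000992 over all tested genes. The library with the least Gas1 was also the one with the least of these markers. Their part in the result was not tested.

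Gas1 was low or without counts in the columnar tissues. JctColumnar held 0.154, 0, 1.40 and 0.361 CPM against 15.98, 12.9 and 13.7 in JctSquamous, a difference of -5.35 ± 0.46 log2 (adjusted p = 9.93e-07), or -6.53 without JctColumnar library 3. Stomach had no count, so that K8YFP+ cells, at 9.25, 12.4 and 20.7 CPM, were at least 51-fold higher on a floor of 3 counts over the group. K8YFP+ exceeded JctColumnar by 5.45 ± 0.50 (1.4e-12), or by 6.65 without its library 3. Gut was split at 0.356 and 5.78 CPM, and its library with more Gas1 also had the larger sum of fibroblast markers, 154 against 6.06 CPM, whose part was not tested. K8YFP+ exceeded Gut by 2.08 ± 0.51 (0.000669), by 1.31 without Gut library 1, by 5.09 without library 2, and at an adjusted p of 0.0739 when the groups were fitted alone. Embryo held 5.26 and 3.94 CPM, below WT at -2.40 ± 0.37 log2 (3.96e-07), and K8YFP- held 15.2, 39.6 and 25.2, from which K8YFP+ did not differ detectably (-0.53 ± 0.40, -1.46 to 0.40, 0.378).

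**Figure D3:**
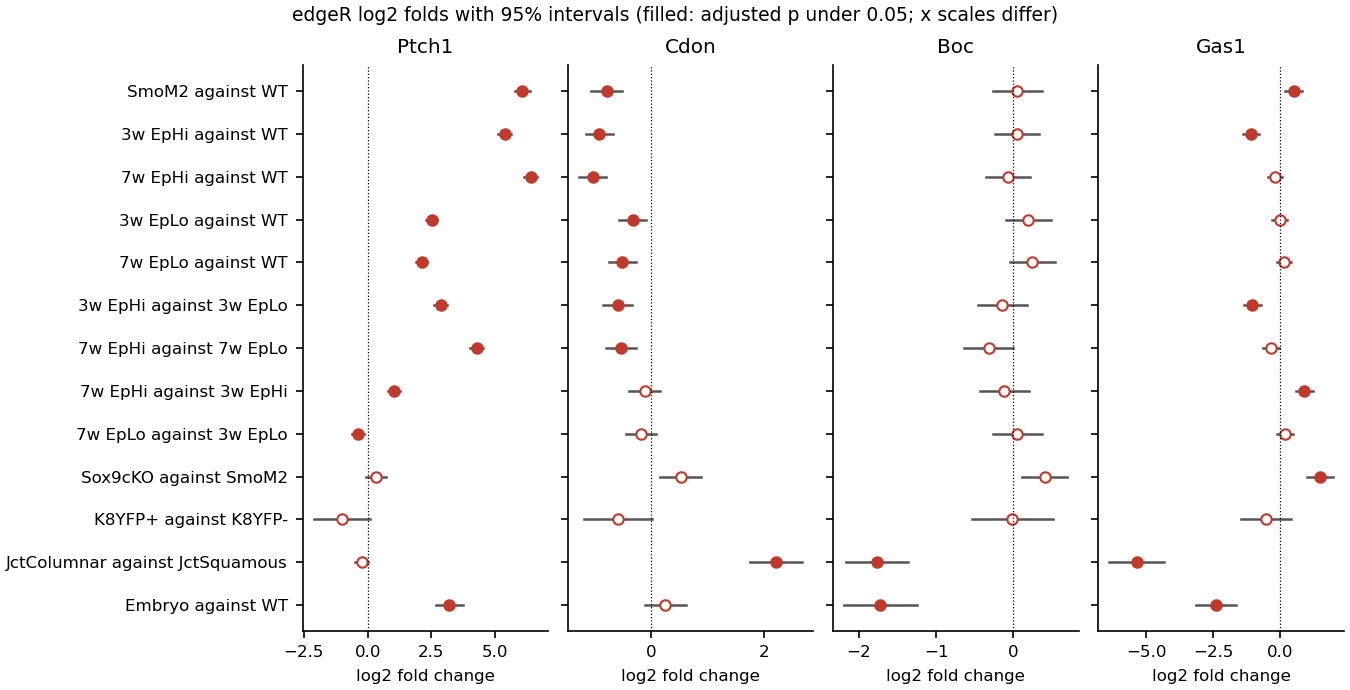
edgeR log2 differences (points) with 95% intervals (lines) for 4 genes in 13 comparisons, filled where the adjusted p is under 0.05; the horizontal scales differ between panels. Ptch1 and Cdon lie on opposite sides of 0 for SmoM2 and each time-series group against WT (6.06 and -0.78 in SmoM2). Boc stays near 0 in those comparisons, and Gas1 lies on either side (0.50 in SmoM2 and -1.09 in 3w EpHi). Sox9cKO, K8YFP+ and K8YFP- were not compared with WT.

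Levels were compared between genes per kilobase of exon. In WT, Ptch1 stood at 1.34 ± 0.13 CPM per kb (SD, n = 6), below Cdon (4.595 ± 0.736), Gas1 (5.75 ± 1.08) and Boc (9.67 ± 2.05). In SmoM2 it stood at 98.02 ± 16.3, while the co-receptor sum was 22.7 ± 2.73 against 20.01 ± 2.33 in WT. The ratio of Ptch1 to that sum was 0.0679 ± 0.0123 in WT, 0.373 ± 0.0425 in 3w EpLo, 0.276 ± 0.0567 in 7w EpLo, 3.65 ± 0.25 in 3w EpHi, 4.37 ± 0.834 in SmoM2 and 6.79 ± 0.473 in 7w EpHi. Embryo had 1.15 and 1.40, and JctSquamous, JctColumnar, Stomach and Gut stayed below 1, from 0.185 in a JctSquamous library to 0.965 in a Stomach library. K8YFP+ libraries had 3.50, 0.913 and 3.21 and K8YFP- libraries 4.98, 2.44 and 5.51. The co-receptor sum was highest in Sox9cKO, at 41.9 ± 10.2 CPM per kb (n = 4), where the ratio was 2.99 ± 0.98.

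The mix of co-receptors also differed between groups, within the oesophagus as well as between epithelia. Boc made up 48.1 ± 6.38% of the sum in WT and 48.3 ± 4.31% in SmoM2, with Cdon at 23.0 ± 2.32% and 13.0 ± 2.18%. In 3w EpHi, Boc made up 66.1 ± 4.67% and Gas1 17.7 ± 2.51%. Cdon was the largest part in Embryo (55.7 and 60.6%), JctColumnar (58.7 ± 9.79%), Stomach (88.0 and 92.8%) and Gut (48.1 and 72.4%), and the smallest in JctSquamous (4.53 ± 0.862%). Gas1 was the largest part in JctSquamous (50.1 ± 2.71%) and Sox9cKO (55.3 ± 8.2%). These shares are descriptions of the levels above and were not tested.

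**Figure D4:**
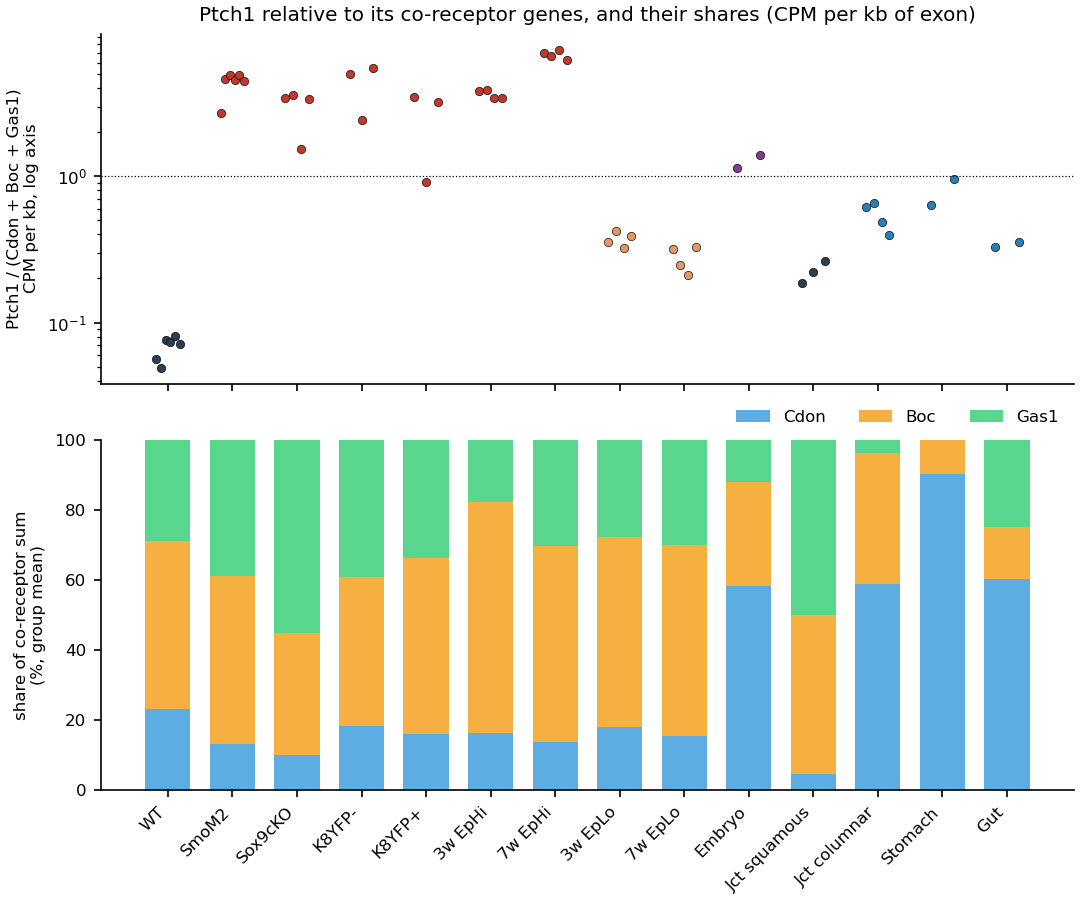
Top, ratio of Ptch1 to the sum of Cdon, Boc and Gas1 in CPM per kb of exon, 1 point per library on a log axis with a dotted line at 1. Bottom, mean share (%) of each co-receptor in that sum by group. The ratio is near 0.0679 in WT and 6.79 in 7w EpHi, and Cdon makes up 4.53% of the sum in JctSquamous and 58.7% in JctColumnar.

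Beside the members, 40 other genes of the pathway, from ligands to GLI factors and their regulators, were counted. In SmoM2 against WT, 14 of the 29 tested rose and 3 fell, where 49.5% of all tested genes passed. The median of the 29 was 0.29 log2, against 0.01 over all tested genes. In the fit of all 14 groups, 39 of the 40 were tested and 26 passed, against 17 of 29. In that fit 10480 of 22370 tested genes passed. Gli1, the transcription factor read most often as an activity gauge, rose by 8.12 ± 0.19 log2 (adjusted p = 1.41e-13) and Gli2 by 6.24 ± 0.21 (1.09e-11), whereas Gli3, mainly a repressor, was at 0.13 ± 0.24 (0.671). Against WT, 10 rose and 7 fell of 30 in 3w EpLo, 9 and 6 in 7w EpLo, 13 and 8 in 3w EpHi, and 12 and 6 in 7w EpHi, where 47.4%, 40.4%, 58.9% and 57.6% of all tested genes passed. Between gates 9 were higher and 1 lower in EpHi at 3 weeks, or 16 in all with the replicate block, and 12 higher and 4 lower at 7 weeks, beside 15.2% and 32.3% of all tested genes. The interaction of gate and week passed for 5 of 30, and for 2.31% of all tested genes, among them Gli1 (1.64 ± 0.20, 5.64e-05) and Gli2 (1.62 ± 0.23, 0.00027), beside Ptch1.

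From 3 to 7 weeks 11 of the 30 rose and 4 fell in EpHi cells (41.4% of all tested genes passed). In EpLo cells 5 rose and 8 fell (38%), and Gli1 (-1.04 ± 0.16 log2, adjusted p = 2.66e-05) and Gli2 (-0.81 ± 0.18, 0.00112) were among the latter. The K8YFP+ cells had 3 of 28 genes higher and 7 lower than K8YFP- cells, where 19.9% of all tested genes passed. Grk2, a kinase that acts on Smoothened (1.17 ± 0.13, 0.0029), and Kctd11, a suppressor of the pathway (1.95 ± 0.23, 0.00309), were among the higher, and Evc2, a ciliary partner of Smoothened (-1.34 ± 0.22, 0.00744), Gli2 (-1.19 ± 0.33, 0.0414) and Gli3 (-1.11 ± 0.25, 0.0209) among the lower. In Sox9cKO 1 of 32 passed, beside 2.66% of all tested genes, with 0 to 8 passing when single libraries were left out, and Gli1 (0.41 ± 0.14, 0.122) did not. The junction had 15 of 36 higher in the columnar cells and 17 lower, where 74.4% of all tested genes passed. The ligand gene Ihh averaged 49.9 CPM in columnar and 0.15 (3 counts) in squamous cells, while Gli1 (-6.41 ± 0.34 log2, 1.68e-08) and Gli3 (-7.56 ± 0.31, 2.15e-09) were lower, on 5 counts each in the columnar cells, and Ptch1 did not pass.

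The ligands were measured mainly outside the adult squamous oesophagus. Shh averaged 182 CPM in Embryo, 53.3 in Stomach and 27.8 in JctColumnar, and 0.768 or less in the 9 adult oesophageal groups, JctSquamous and Gut. Ihh averaged 49.9 CPM in JctColumnar, 45.8 in Stomach and 31.7 in Gut, and 0.209 or less in the other adult groups. The 2 Embryo libraries differed in Ihh, at 12.2 and 0.275 CPM (132 and 3 counts). In Embryo against WT, 25 of 39 pathway genes rose and 7 fell (median 1.48 log2, against 0.16 over all tested genes), where 64% of all tested genes passed. The heparan sulphate proteoglycan gene Gpc6 averaged 94.0 CPM against 0.0203 in WT, and Spop, a ubiquitin-ligase adaptor that acts on GLI factors, was lower (-1.55 ± 0.11 log2, 4.32e-16). K8YFP+ cells had 18 higher and 14 lower of 39 against JctColumnar, 19 and 7 against Stomach and 20 and 7 against Gut, where 60.8%, 50.4% and 49.3% of all tested genes passed.

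Genes with the pattern most like each member were sought by Pearson correlation of log2(CPM + 1) over the 14 group means, among 13481 protein-coding genes. The groups share genotypes and gates, so these are descriptions. Among the closest to Ptch1 were A2ml1 (r = 0.98), Syndig1 (0.97), Lsp1 (0.97) and Npy1r (0.96). A2ml1, a protease-inhibitor gene, averaged 0.462 CPM in WT and 66.1 in SmoM2, and Lsp1 0.623 and 57.6. Hhip resembled Prkg1, Gjc1, Elavl2, Nlgn1 and Adamts19 (0.92 to 0.94), all highest in Embryo among the 5 groups examined, a pattern that for Hhip rests on few counts. Gas1 resembled Unc45a, Slc20a1, Mapk6 and Hlf (0.94 to 0.95) and Boc resembled Mark4, Atf3, Tiparp, Bmp4 and Pard6g (0.97 to 0.98), of which Bmp4, a secreted growth factor gene, averaged 12.7 CPM in WT and 1.97 in JctColumnar. Cdon had no close match, with Add1, Dach2, Mks1, Vps13b and Edn1 at 0.79 to 0.81. Among the members, Boc and Gas1 were most alike (0.87) and Hhip and Gas1 least (-0.07), and Ptch1 was at 0.61 with Gas1, 0.65 with Boc and 0.32 with Cdon.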

How the data were processed

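Per the submitters' processing notes, the authors used STAR 2.5.3a, HTSeq and edgeR on GRCm38 (mm10), and the deposited values are read counts per gene, used as deposited. The sources used here do not name the annotation release or whether counting used strand. Symbols and coordinates came from GENCODE M21 (52403 of 52636 identifiers matched), promoter windows from RefSeq. CPM are counts divided by the library total and multiplied by 1e6, with SD between libraries; a floor is 3 counts over a group's total and covers counting error only.

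Differences are log2 values with SE from edgeR 4.0.16 (R 4.3.3; quasi-likelihood test, TMM scaling, filterByExpr with minimum count 10 and total 15), with Benjamini-Hochberg adjustment over all genes and a two-sided threshold of 0.05, tested on simulated data. Because of TMM scaling they can differ from ratios of CPM. SmoM2, K8YFP, Sox9cKO and junction contrasts were fitted on their own groups, time-series contrasts with WT on 22 libraries, embryo and columnar contrasts on all 51, making 17 comparisons. Alternatives were RLE scaling, no filter, DESeq2 1.42.0, a replicate block, other fits, summed WT pairs and leaving out each library. Same-numbered libraries of K8YFP+ and K8YFP- (r 0.28 to 0.39) and of the 3-week gates (0.158 to 0.283) deviated together. Their r was over 0.1 in every pair, whereas the other comparisons that share numbers had at least 1 pair not over it. No label states a shared animal. Named genes were the members, Smo, Gli1, Gli2, Gli3, Shh, Ihh, the 3 pathway genes with the smallest p, the 5 most like each member (at least 5 CPM in a group) and markers beside a result; some genes this rule names are not reported here. Members and lists were chosen with earlier results of these data known.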

Additional observations from a re-analysis of the deposited data

Results flagged for a closer look

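Single libraries stood apart from the rest of their group by Dixon's test of the largest gap in 5 of the 37 member and group combinations with 4 to 10 libraries, where chance gives about 1 in 20. Ptch1 was at 15.3 CPM in WT library 2, below the other 5, and Cdon at 46.9 CPM in WT library 1, above the other 5. The other 3 cases are counts of 1 or 2 reads of Hhip in a group otherwise at 0: 0.244 CPM in WT library 1, 0.131 CPM in 3w EpHi library 4 and 0.147 CPM in 7w EpHi library 3. The test flags any lone library with counts in such a group, whatever the count. These 3 flags can therefore not be set against the chance rate of 1 in 20.

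The gap in Ptch1 between EpCAM-high and EpCAM-low SmoM2 cells differed between weeks, being 1.41 log2 wider at 7 than at 3 weeks by the interaction test.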

How the results depend on the processing

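No log2 difference of a member that passed its test changed sign under any alternative. The number of members called moved by more than 1.5 times in 6 comparisons. For K8YFP+ against K8YFP- it went from 0 to 1 without the filter, 1 with the replicate block and 2 when all 14 groups were fitted together. Leaving out single libraries gave 0 to 1. For Sox9cKO against SmoM2 it went from 1 to 2 in the fit of all 14 groups, with 1 to 2 when leaving out libraries. For 7w EpHi against 7w EpLo, the replicate block gave 4 in place of 2. The r of same-numbered libraries there was 0.0717 to 0.198, with only the lowest under 0.1. The interaction of gate and week called 1 member, 2 with DESeq2, 2 with the replicate block, 0 in the fit of all 14 groups, and 1 to 2 when leaving out libraries. The counts for 7w EpLo against 3w EpLo (1) and 3w EpLo against WT (2) fell to 0 and 1 in the fit of all 14 groups, with ranges of 0 to 1 and 1 to 3 when leaving out libraries. The cause of these shifts was not tested. Among the 40 other pathway genes, calls moved in the joint fit from 17 to 26 in SmoM2 against WT. In K8YFP+ against K8YFP- they moved from 10 to 18, with 4 to 6 without single libraries. In Sox9cKO they moved from 1 to 4 (2 with RLE, 3 without the filter, 4 with DESeq2, 0 with the block). The interaction went from 5 to 2 (11 with the block). The joint fit tested 39 of the 40 genes, against 29, 28, 32 and 30 in these comparisons. Of its 22370 genes, 10480 passed in SmoM2 against WT and 6733 in K8YFP+ against K8YFP-, against 8034 of 16224 and 3110 of 15598. The replicate block changed no other call on a member than those of Ptch1 in K8YFP+ against K8YFP-, of Boc and Gas1 between gates at 7 weeks and of Gas1 in the interaction. RLE scaling changed no call on a member in 72 differences, and summing the paired WT libraries none in 25. Scaling moved the median of all genes by over 0.1 log2 for Embryo against WT alone (0.104). The ranges of neighbouring groups did not overlap at 12 of 65 steps in the order of levels, or 14 on TMM-scaled CPM. Depth limits Hhip in all adult groups and Gas1 in Stomach and Gut, whose totals are 10.82 and 6.44 M counts.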
